A study of Mus musculus with 50 samples.

Results

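The genes described here are 38 genes that copy the genome in S phase, followed in sorted mouse Treg cells and their thymic progenitors. They form a fixed list of origin licensing, replisome and nucleotide supply genes, chosen by function but with earlier results of these data known. All 38 are among the 55011 gene symbols of the count table, and all 38 passed the filter on low counts in every fit. By role they are 10 licensing genes (Orc1, Orc6, Cdc6, Cdt1, Mcm2 to Mcm7), 6 genes that turn the loaded helicase on (Mcm10, Cdc45, Gins1 to Gins4) and 9 polymerase, clamp and clamp loader genes (Pola1, Prim1, Pole, Pole2, Pold1, Pcna, Rfc3, Rfc4, Rfc5). There were 2 genes that join Okazaki fragments (Fen1, Lig1), 5 nucleotide genes (Rrm1, Rrm2, Tyms, Tk1, Dut), 3 genes of chromatin assembly and histone messages (Chaf1a, Chaf1b, Slbp) and 3 genes of the fork checkpoint and repair (Clspn, Exo1, Rad54l). The replication score of a library is the mean of their log2 CPM (counts scaled to the library total and by TMM, with a prior count of 2).

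Before a cell copies its DNA, the origin recognition complex with Cdc6 and Cdt1 loads rings of the Mcm2 to Mcm7 helicase onto replication origins. Cdc45 and the GINS complex then join each ring, polymerases extend from primers around the sliding clamp Pcna, and ribonucleotide reductase supplies the deoxynucleotides. Most of these genes are transcribed from late G1 into S phase under E2F factors and are low in resting cells. Their messenger RNA in a sorted population is therefore often read as a mark of cycling. In bulk samples a smaller share of cycling cells and less of these messages per cell cannot be told apart.

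The series profiled Foxp3-related CD4 T cells in 50 RNA-seq libraries of 500 to 1000 double-sorted cells each, from mice labelled male and WT. The thymus supplied 18 libraries of 2 progenitor populations of the strain B6.Cg-Foxp3tm1Kuch/J: P1, labelled CD25+Foxp3-, and P2, labelled CD25-Foxp3+, each at 5, 12 and 49 days of age (D5, D12, D49) with 3 libraries a group. The other 32 libraries are Treg cells at 20 weeks from mice with the allele Foxp3tm3(HBEGF/GFP)Ayr on a B6.129(Cg) background, in which the Foxp3 locus carries a diphtheria toxin receptor and GFP, with 3 PBS-labelled and 3 DT-labelled libraries each of spleen, lung, liver and ear skin and 4 of each arm of visceral adipose tissue (VAT). Littermates with and without the receptor received diphtheria toxin (DT) at 12 weeks on 3 days and rested for 8 to 9 weeks, per the series text, whereas the titles name the control arm PBS. The genotype label does not separate carriers from non-carriers, so how far Treg cells were depleted cannot be read from the labels. Nothing in the labels ties the libraries of 1 group to different animals, and the p-values cover no more than the spread between libraries, which may be technical.

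Total counts per library ran from 2521078 to 6981037 and detected genes from 18209 to 33651. Some libraries stood apart by the share of counts in rare genes (mean below 1 CPM over all libraries). They were the P1 D12 libraries with 0.904% to 1.86%, P2 D49 libraries 2 and 3 with 1.68% and 2.26%, lung PBS library 2 with 1.65% and all ear skin libraries with 1.15% to 2.28%. Liver DT library 6 (1.07%), VAT DT library 7 (0.950%) and spleen PBS library 3 (0.900%) were near the low end of these. The P1 and P2 libraries at D5 held 0.279% to 0.315%. Foxp3 averaged 8.00 to 13.9 CPM in the P1 groups, 281.9 to 769 CPM in the P2 groups and 254.2 to 405.0 CPM in the peripheral groups. Il2ra, which encodes CD25, averaged 118.0 to 131.8 CPM in P1 and 14.9 to 35.4 CPM in P2, so these 2 genes matched the labels of both sorts. Cd4 was less even. In P1 it averaged 694 CPM at D5, 324 at D12 (305 to 337) and 947 at D49. In P2 it averaged 743 CPM at D5, 814 at D12 and 474 ± 332 at D49, where its libraries ran from 217 to 849. The part of this unevenness in the results was not tested.

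The promoters of these genes were read first, since E2F factors are the textbook link between them. The RefSeq promoter table for GRCm38.p6 (mm10), which gives 250 bases before to 50 after each start, matched 32 of the 38 genes. Mcm4, Gins1, Gins2, Gins4, Pole and Exo1 were not matched. Each window was searched on both strands for 3 E2F words, TTTCGCGC, TTTGGCGC and TTTCCCGC, of which TTTCGCGC and TTTGGCGC can overlap when they face each other. At least 1 of these words stood in 14 of 32 replication promoters (43.8%), against 573 of 27025 genes in the table (2.12%). The 14 genes were Cdc6, Cdt1, Clspn, Gins3, Lig1, Mcm3, Mcm5, Mcm6, Mcm7, Orc1, Pola1, Pold1, Pole2 and Rfc3. The NF-Y word CCAAT stood in 62.5% of the replication promoters and 41.1% of all, and the CHR word TTTGAA of later cell cycle genes in 12.5% and 20.2%. A match is only a match of letters in these windows. The 5 stretches shown here are examples with more than 1 word (Mcm6 with 3, Mcm5 and Rfc3 with 2 each; Mcm3 and Mcm7 also hold 2 and are not shown) and those of Orc1 and Cdc6, which with Mcm5 span the widest range of levels among the licensing genes, with the E2F words in capitals and 5′ to 3′ on the gene's own strand:
Mcm6, chr1:128359725-128359835, minus strand: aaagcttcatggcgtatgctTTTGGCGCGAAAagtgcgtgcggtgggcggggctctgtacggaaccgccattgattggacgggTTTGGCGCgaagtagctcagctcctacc
Mcm5, chr8:75109336-75109387, plus strand: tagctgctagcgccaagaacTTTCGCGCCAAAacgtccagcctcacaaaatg
Rfc3, chr5:151651189-151651238, minus strand: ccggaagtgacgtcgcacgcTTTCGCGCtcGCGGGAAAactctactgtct
Orc1, chr4:108579407-108579454, plus strand: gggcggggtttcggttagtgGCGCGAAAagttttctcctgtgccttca
Cdc6, chr11:98907993-98908040, plus strand: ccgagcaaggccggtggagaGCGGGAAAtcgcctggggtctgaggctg
In Mcm6 the first capital run joins 2 overlapping words and a further word lies nearer to the start, and the single run of Mcm5 holds 2 overlapping words that face each other. Rfc3 carries its 2 words side by side, 1 just before and 1 at the annotated start. The RefSeq starts of Mcm5 and Mcm6 were not found within a GENCODE M21 transcript of the gene.

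The replication score was highest in P1 at D5, was lower at each later age in both thymic populations, and was lowest in P2 at D49. It averaged 7.11 ± 0.06 (SD, n = 3 libraries) in P1 at D5, 6.55 ± 0.16 at D12 and 5.50 ± 0.10 at D49. In P2 it lay between 6.20 and 6.22 at D5 and averaged 4.99 ± 0.35 at D12 and 4.15 ± 0.19 at D49. Among peripheral Treg cells the spleen was lowest, at 4.70 ± 0.28 in the PBS-labelled and 4.74 ± 0.35 in the DT-labelled arm. Within each arm lung (5.88 ± 0.60 and 5.96 ± 0.19) and liver (5.88 ± 0.30 and 5.59 ± 0.17) had the highest means, and VAT was between them and the spleen (5.31 ± 0.27 and 5.18 ± 0.37). Ear skin averaged 5.68 ± 0.50 in the PBS-labelled arm and 5.04 ± 0.22 in the DT-labelled arm. Neighbours in this order often overlapped: the 3 PBS-labelled lung libraries alone ran from 5.23 to 6.43, across the range of liver and ear skin. Thymic and peripheral groups differ in strain and age, so these levels stand side by side and were not tested against each other.

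**Figure D1:**
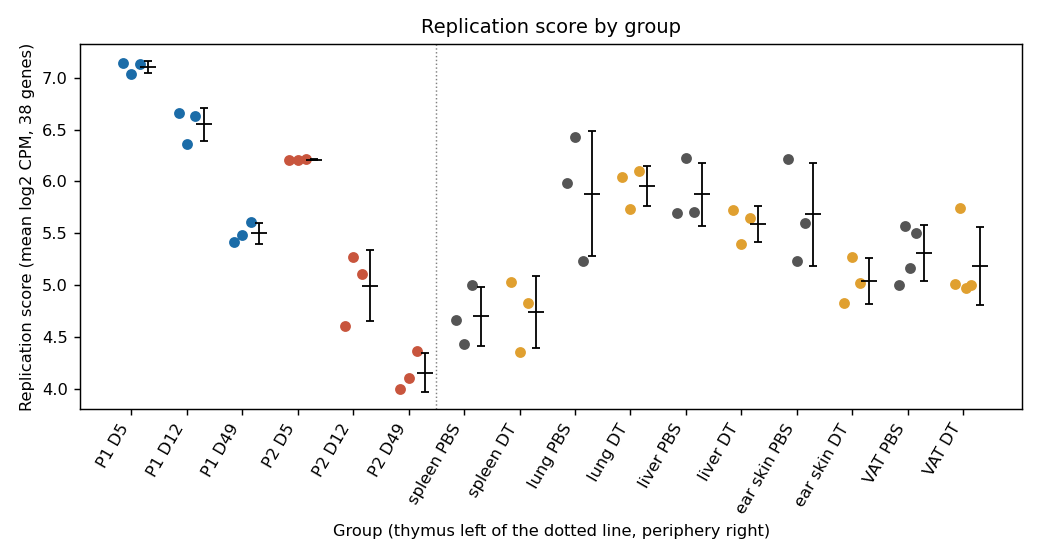
Replication score (mean log2 CPM of the 38 genes, y axis) of every library by group (x axis), with the group mean and SD as bars. Thymic groups stand left of the dotted line and descend from 7.11 in P1 at D5 to 4.15 in P2 at D49, and peripheral groups stand right of it, with both spleen arms lowest.

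The pattern was shared by nearly the whole list. Of the 38 genes, 36 had their highest group mean in P1 at D5. The exceptions were Cdt1, highest in PBS-labelled lung, and Orc1, highest in DT-labelled lung, both of them loading factors for the Mcm helicase. In 25 genes the lowest mean was in P2 at D49. In the remaining 13 it was in spleen (8 genes), DT-labelled ear skin (4 genes) or P2 at D12 (1 gene). Within the periphery, 23 genes peaked in 1 of the lung groups, 6 in PBS-labelled liver, 6 in PBS-labelled ear skin, 2 in PBS-labelled spleen and 1 in PBS-labelled VAT.

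**Figure D2:**
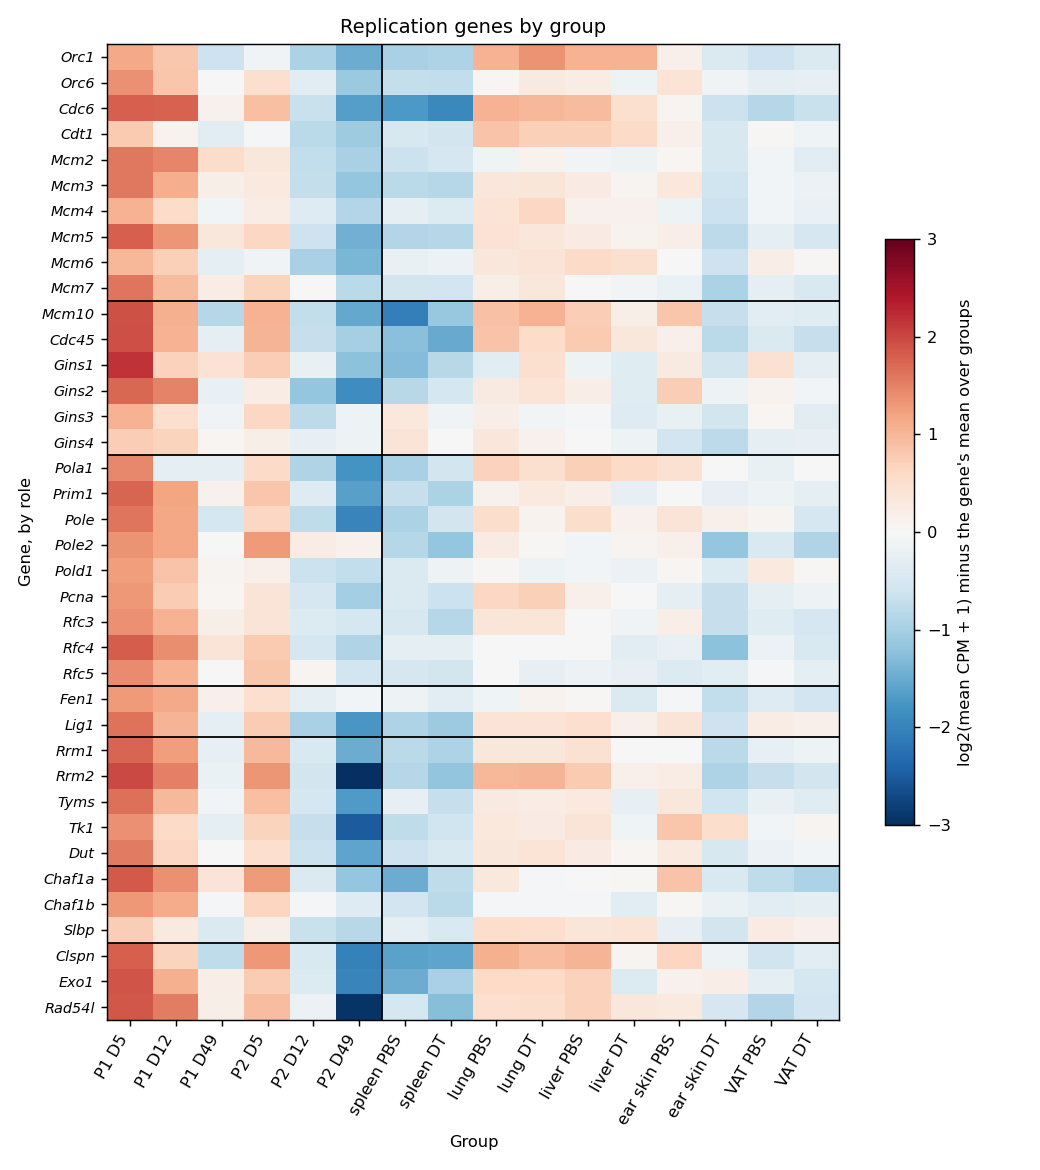
Group means of the 38 genes (y axis, grouped by role) in the 16 groups (x axis), as log2(mean CPM + 1) minus the gene's own mean over groups, so red is above and blue below that mean. P1 at D5 is red in every gene and P2 at D49 is blue in most, deepest for Rrm2 and Rad54l, and Gins4 is among the palest lines.

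Levels of different genes were compared only after division by exon length (CPM per kilobase of merged GENCODE M21 exons). In P1 at D5, Rrm2, the small subunit of ribonucleotide reductase that limits its activity, led with 201.0 ± 18.6 CPM per kilobase. Mcm3 followed with 192.3 ± 4.48, Mcm5 with 173.8 ± 1.11 and Mcm6 with 157.0 ± 3.11. The SDs of Rrm2 and Mcm3 overlap. Cdc6 stood lower, at 17.3. The other end held genes of several roles, among them Chaf1a at 9.24, Fen1 at 8.74, Mcm10 at 8.60, Pole at 7.36 and Orc1 at 6.35. Exo1, an exonuclease of replication repair, was lowest at 6.04 CPM per kilobase. Exons shared with a neighbour make some counts uncertain, since the strand setting of the counting is not given in the sources used here: 84.2% of Fen1 exon bases overlap another gene, 67.3% of Gins2 (Gse1), 52.5% of Chaf1a (Ubxn6) and 15.4% of Rad54l (Lrrc41).

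In P1 progenitors the replication genes fell with age as a block, most of it after D12. Mcm5, a subunit of the helicase ring, read 698, 695 and 689 CPM in the 3 libraries at D5, 553, 419 and 536 at D12 and 255, 283 and 223 at D49, so the 3 ages did not overlap. Mcm10, which helps the helicase to fire, read 73.7, 66.5 and 58.2 CPM at D5 and 8.71, 8.20 and 9.90 at D49. Clspn, which relays fork stress to the checkpoint kinase Chk1, read 69.2, 54.6 and 62.9 CPM at D5 and 8.25, 8.20 and 12.7 at D49. In both genes every D49 library lay far below every D5 library. All 38 genes were called lower at D49 than at D5 (edgeR quasi-likelihood test, Benjamini-Hochberg adjusted p below 0.05), against 6.50% of all genes tested that were called lower, with a median log2 fold change of -1.49 against 0.00 over all genes. The largest changes were in Mcm10 (-2.89, SE 0.43, adjusted p = 9.13e-05), Clspn (-2.68, SE 0.35, adjusted p = 1.92e-05) and Cdc45 (-2.25, SE 0.27, adjusted p = 6.11e-06), and the smallest was in Gins4 (-0.70, SE 0.19, adjusted p = 0.0203).

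Between D5 and D12 in P1 only 9 genes were called lower, against 8.16% of all genes, with a median of -0.37. They were Mcm4, Mcm7, Cdc45, Gins1, Pola1, Pcna, Tk1, Dut and Clspn. Pola1, the catalytic subunit of the primase-bound polymerase, changed most: 136, 105 and 106 CPM at D5 and 38.4, 36.7 and 28.7 CPM at D12 (-1.61, SE 0.25, adjusted p = 0.000617). Gins1 (-1.46, adjusted p = 0.0372) and Clspn (-1.04, adjusted p = 0.0304) came next. Cdc6 did not differ by the test, at 90.9, 87.1 and 93.0 CPM at D5 and 102, 79.5 and 87.1 CPM at D12, and neither did Mcm2 (log2 fold change -0.01, SE 0.11). This count was sensitive to single libraries: it was 3 without P1 D5 library 1, 2 or 3 or P1 D12 library 2, 4 without P1 D12 library 1 and 5 without P1 D12 library 3. With the share of counts in rare genes, which was higher in every P1 D12 library than in the D5 libraries, as a covariate it was 2, and with the 6 libraries fitted alone it was 19. Markers of several other cell types summed to more at D12 than at D5 with no overlap. B cell markers stood at 14.6 to 19.0 CPM over 6 genes against 4.96 to 6.65 CPM (2 of 4 tested called higher), and hepatocyte markers at 22.6 to 24.7 CPM over 4 genes against 4.80 to 7.10 CPM (1 of 1). Of the hepatocyte genes, Alb, Apoa1 and Serpina1a were at 0 in all D5 libraries, so the D5 sum was Ttr alone. Apoa1 was also at 0 in all D12 libraries. Fibroblast and adipocyte markers stood at 4.70 to 11.2 CPM over 7 genes against 0.960 to 1.97 CPM (1 of 2), dendritic cell markers at 5.05 to 8.76 CPM over 5 genes against 2.40 to 3.36 CPM (1 of 3) and macrophage and monocyte markers at 6.20 to 12.0 CPM over 8 genes against 5.32 to 5.91 CPM (1 of 7). Their part in the result was not tested.

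From D12 to D49 in P1, 34 genes were called lower, against 13.5% of all genes, with a median of -1.13 against -0.05 over all genes. The 4 not called were Cdt1, Gins1, Gins3 and Pola1, of which Pola1 and Gins1 had been called in the earlier step. Mcm10 (-2.15), Gins2 (-1.93) and Pole, the leading strand polymerase (-1.87), changed most. With the rare gene share as a covariate 20 genes were called, and Mcm10 (adjusted p = 0.0974) and Pole (adjusted p = 0.521) were no longer among them. NK cell markers summed to 19.5 to 24.8 CPM over 4 genes at D49, 4.38 to 11.5 CPM at D12 and 3.33 to 7.20 CPM at D5, with 1 of 4 called higher against either age. Immature thymocyte markers summed to 143 to 168 CPM over 6 genes at D49 against 96.6 to 101 CPM at D12 (2 of 4 tested called higher and 1 lower), and B cell markers to 2.82 to 6.64 CPM against 14.6 to 19.0 CPM (1 of 4 called lower). Macrophage and monocyte markers summed to 6.50 to 34.8 CPM at D49 against 5.32 to 5.91 CPM at D5, with 3 of 7 called higher. Their part in the results was not tested. The age comparisons within P1 share libraries in pairs, as do those within P2.

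In P2 progenitors most of the decline in the replication score was already present at D12. On the log2 scale, however, some genes, among them Rrm2, Rad54l, Tk1 and Exo1, fell further after D12 than before it. Rrm2 read 358, 352 and 348 CPM at D5, 74.0, 107 and 106 at D12 and 9.45, 14.2 and 26.2 at D49, with no overlap between ages. Rad54l, a motor protein of recombination repair, read 39.6, 35.4 and 36.8 CPM at D5, 6.71, 20.5 and 23.6 at D12 and 1.15, 1.18 and 2.62 at D49. Tk1, the thymidine salvage kinase that is degraded outside S phase, read 77.2, 79.1 and 80.9 CPM at D5, 16.6, 42.3 and 31.5 at D12 and 5.73, 8.89 and 8.86 at D49. In each of these genes every D49 library lay below every D12 and D5 library given here. At D12 32 genes were called lower than at D5, against 3.35% of all genes, with a median of -1.18 against 0.00 and with Rrm2 (-1.92), Mcm10 (-1.92) and Clspn (-1.86) leading. Orc1, Gins1, Gins4, Pole, Fen1 and Chaf1b were not called.

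Over the whole interval from D5 to D49 in P2, 35 genes were called lower, against 11.1% of all genes, with a median of -1.76 against 0.08. Rad54l (-4.25, SE 0.40, adjusted p = 1.54e-07), Rrm2 (-4.20, SE 0.25, adjusted p = 1.11e-09) and Clspn (-3.53, SE 0.40, adjusted p = 2.27e-06) changed most. The roles differed in size: the median was -3.53 for the fork checkpoint and repair genes, -2.48 for the nucleotide genes, -1.35 for licensing and -0.87 for chromatin assembly and histone messages. Within the nucleotide genes, Tk1 (-3.17), Tyms, the thymidylate synthase (-2.48), Rrm1 (-2.30) and Dut, which keeps uracil out of DNA (-1.98), all fell by less than Rrm2. The 3 genes not called were Gins3 (-0.72, adjusted p = 0.0923), Gins4 (-0.19, adjusted p = 0.508) and Fen1 (-0.49, adjusted p = 0.258). Without both P2 D49 libraries 2 and 3, which hold many rare genes, 32 were called, but this leaves 1 library at that age, assumed to vary like the other groups, and shows nothing of its own spread.

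The step from D12 to D49 in P2 was smaller: 13 genes were called lower, against 5.97% of all genes, with a median of -0.60. They included all 5 nucleotide genes and all 3 fork checkpoint and repair genes, but only Cdc6, Mcm5 and Mcm7 of licensing and no gene of helicase activation. Rad54l (-3.08), Rrm2 (-2.28) and Exo1 (-1.77) led. The count was 5 without P2 D12 library 2, 6 with the rare gene share as a covariate and 1 with these 6 libraries alone. Markers of macrophages and monocytes moved with this age group: the 8 genes of that list summed to 28.8 to 151 CPM in P2 at D49, 4.77 to 6.27 CPM at D12 and 1.87 to 8.84 CPM at D5, and 6 of the 7 tested were called higher at D49 than at D5, with Lyz2 and Adgre1 among those at 0 in all D5 libraries. Against D12, 6 of the 7 tested were also called higher, and there C1qa, C1qb and C1qc were at 0 in all libraries. Their part in the result was not tested.

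**Figure D3:**
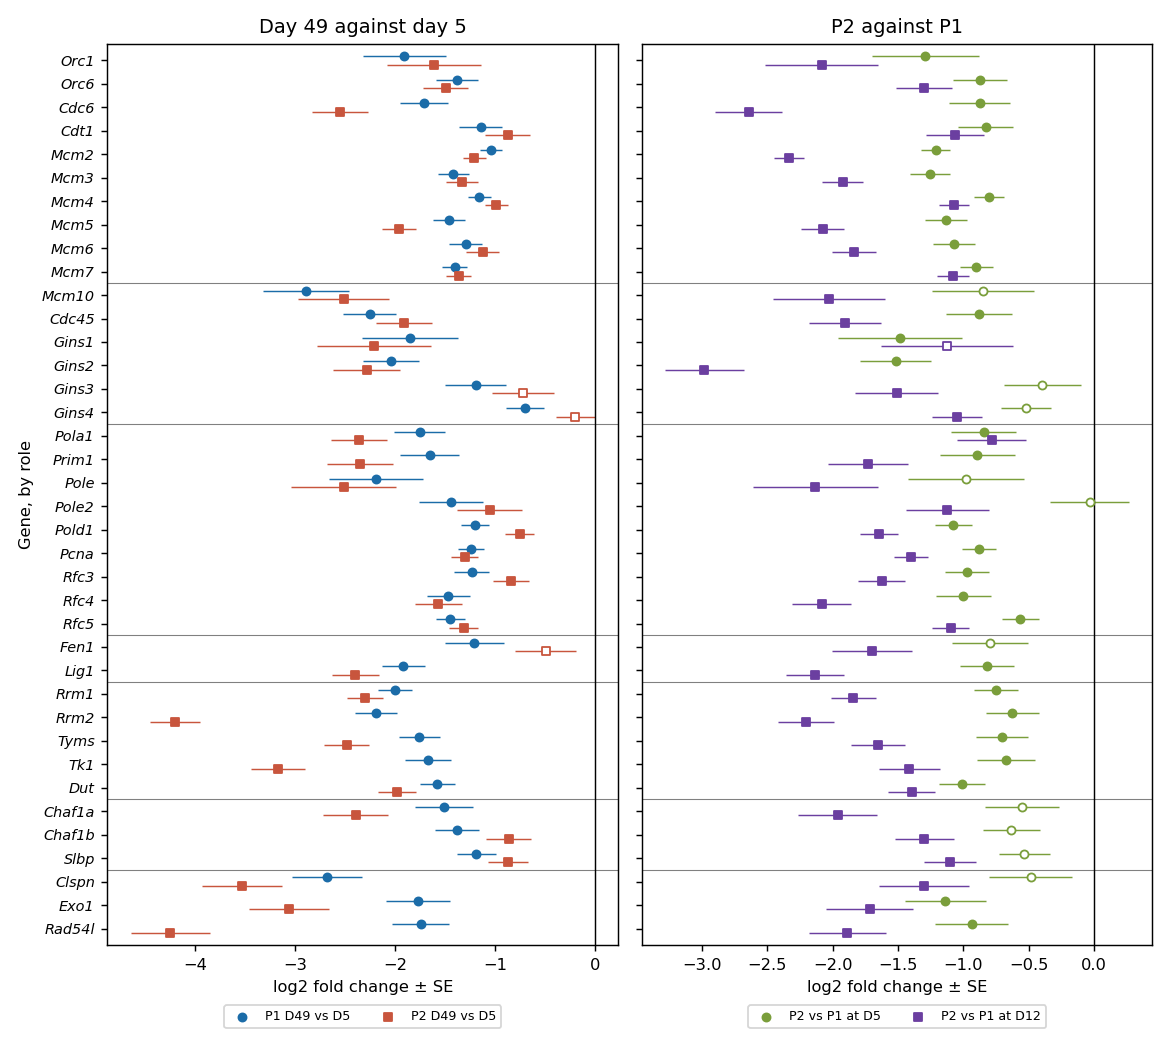
Log2 fold change ± SE (x axis) of each gene (y axis, by role), left for D49 against D5 in P1 and P2 and right for P2 against P1 at D5 and at D12. Filled points were called and hollow points were not, and on the left Rrm2 (-4.20) and Rad54l (-4.25) of P2 lie farthest from 0 and Gins4 of P2 (-0.19) nearest.

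P2 cells held less replication message than P1 cells at every age. At D5, Mcm5 read 299, 321 and 306 CPM in P2 against 689 to 698 CPM in P1, and Gins2, a subunit of the GINS ring, read 12.4, 16.8 and 19.0 against 45.4 to 48.9 CPM. Neither gene overlapped between the populations. At this age 28 genes were called lower in P2, against 8.40% of all genes, with a median of -0.87, led by Gins2 (-1.52), Gins1 (-1.49) and Orc1 (-1.29). Pole2, a subunit of the leading strand polymerase picked out here after its values were seen, overlapped between the populations (28.3, 25.4 and 30.1 CPM in P1, 31.0, 22.8 and 26.1 in P2). The number called was 16 without P1 D5 library 1, 17 without P2 D5 library 2 and 18 without P2 D5 library 3.

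At D12, 37 genes were called lower in P2, against 23.8% of all genes, with a median of -1.68 against -0.08 over all genes. Gins2 read 40.8, 32.3 and 47.2 CPM in P1 and 4.70, 5.35 and 6.48 in P2 (-2.98, SE 0.30, adjusted p = 2.80e-07). Cdc6, the loader that brings the helicase to origins, read 102, 79.5 and 87.1 CPM in P1 and 9.84, 16.5 and 20.5 in P2 (-2.64, SE 0.26, adjusted p = 1.75e-07). Mcm2 read 585, 495 and 597 CPM against 112, 135 and 116 (-2.33, SE 0.11, adjusted p = 1.31e-11). In each of these genes all P2 libraries lay below all P1 libraries. Gins1 was the gene not called (-1.13, adjusted p = 0.0807). With the rare gene share as a covariate 33 were called. CD8 T cell markers summed to 23.8 to 30.2 CPM over 2 genes in P2 against 64.8 to 71.9 CPM in P1 (2 of 2 called lower), and dendritic cell markers to 0.224 to 0.908 CPM over 5 genes against 5.05 to 8.76 CPM (1 of 3 tested called lower). Their part in the result was not tested.

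At D49, 27 genes were called lower in P2, against 12.9% of all genes, with a median of -1.08 against 0.10. Rad54l (-3.44), Rrm2 (-2.64) and Exo1 (-2.43) led, and all nucleotide and all fork genes were called, but only Gins1 and Gins2 of helicase activation. Pole2 (0.35) and Gins3 (0.08) had a positive log2 fold change and were not called. Fitted alone, the 6 libraries gave 18 calls. CD8 T cell markers summed to 27.1 to 42.3 CPM in P2 against 74.7 to 81.1 CPM in P1 (2 of 2 called lower) and B cell markers to 8.35 to 28.6 CPM over 6 genes against 2.82 to 6.64 CPM (2 of 4 tested called higher), and their part in the result was not tested.

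Whether age changed the 2 populations differently was tested as an interaction. From D5 to D12, 7 genes fell further in P2 than in P1, against 1.78% of all genes: Cdc6 (-1.77, SE 0.34, adjusted p = 0.00907), Rrm2 (-1.58, SE 0.29, adjusted p = 0.00783), Gins2 (-1.46, SE 0.40, adjusted p = 0.0451), Lig1, the ligase of Okazaki fragments (-1.32, SE 0.30, adjusted p = 0.0201), Mcm2 (-1.12, SE 0.15, adjusted p = 0.00215), Rrm1 (-1.09, SE 0.24, adjusted p = 0.0169) and Mcm5 (-0.94, SE 0.23, adjusted p = 0.0253). The median over the 38 genes was -0.81 and 36 of them were negative. The count was 4 without P1 D5 library 2 or P2 D12 library 1, 3 with the rare gene share as a covariate, 16 by DESeq2 and 24 with the 12 libraries alone. From D5 to D49 only Rad54l (-2.51, SE 0.51, adjusted p = 0.0354) and Rrm2 (-2.01, SE 0.32, adjusted p = 0.0168) fell further in P2, against 0.218% of all genes, with a median of -0.11. Leaving out 1 library at a time gave 1 to 4 calls, and without P2 D49 libraries 2 and 3 there were 6, again with 1 library left at that age and the spread taken from the other groups.

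Genes named beside the list for the same process moved in the same direction in the thymus. In these D49 against D5 comparisons 6.50% of all genes tested were called lower in P1 and 11.1% in P2. Of 40 other replication factors, 27 were called lower and none higher in P1 at D49 against D5 (median -0.92), and 22 lower and 1 higher in P2 (median -0.54). Examples are Tipin, a fork protection factor (-2.16 in P1, -1.81 in P2), and Asf1b, a histone chaperone (-2.24 and -3.09). Of 14 regulators of entry into S phase, 12 were called lower in each population, with Ccne1, the cyclin of the G1 to S step, at -1.97 in P1 and -2.57 in P2, and Ccna2 at -2.29 and -4.79. Of 20 other nucleotide supply genes, 9 were lower and 1 higher in P1 and 12 lower and 1 higher in P2. The gene higher in both was Samhd1, which breaks deoxynucleotides down (0.61 and 0.66). Of 10 genes linked to rest or arrest, 9 were tested: Btg2 (0.73) and Tob1 (0.98) rose in P1, Cdkn2d fell in both (-0.74 and -0.78) and Klf2 fell in P2 (-0.84). In P2 against P1 at D12, Foxo1 (1.12), Cdkn1b, the brake p27 (2.97), and Klf2 (0.91) were among those called higher. There 1 of the 9 was called lower, against 23.8% of all genes. The share of all genes called higher is not given here for the thymus comparisons. The genes called higher in this paragraph therefore stand as examples only. Within P1, Cdkn1b was lower at D12 than at D5 (-1.74) and higher at D49 than at D12 (2.17).

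In PBS-labelled mice, Treg cells of lung, liver and ear skin held more replication message than those of spleen. The 4 tissue comparisons share the spleen libraries. Orc1, the largest subunit of the origin recognition complex, read 6.95, 1.57 and 4.49 CPM in spleen, 23.0, 20.5 and 18.6 in lung and 20.8, 21.3 and 19.4 in liver. Cdc6 read 0.970, 4.31 and 15.8 CPM in spleen, 44.8, 96.4 and 19.1 in lung and 51.1, 62.2 and 36.9 in liver. Clspn read 1.29, 3.33 and 10.2 CPM in spleen, 47.8, 47.3 and 15.2 in lung and 30.6, 49.7 and 27.4 in liver. In these genes every lung and liver library lay above every spleen library, and lung library 3 was the lowest of its group.

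In lung 24 genes were called higher than in spleen and none lower, against 8.14% of all genes called higher, with a median of 1.14 against 0.04. Mcm10 (3.35, SE 0.64, adjusted p = 0.00025), Cdc6 (2.99, SE 0.68, adjusted p = 0.0020) and Clspn (2.97, SE 0.55, adjusted p = 0.000173) led. Gins4 (0.02, SE 0.30), Gins3 (-0.07, SE 0.40), Fen1 (0.08, SE 0.44) and Rfc4 (0.30, SE 0.39) stayed near 0. The count was 10 without lung PBS library 2, the library with the highest score (6.43) and the largest rare gene share of its group, 15 without spleen PBS library 2 and 10 with the 6 libraries alone. In liver 22 genes were called higher, against 9.15% of all genes, with a median of 1.06, and Mcm10 (3.20), Clspn (2.93) and Cdc6 (2.90) led again. That count was 11 without liver PBS library 2, which had the highest score in its group, and 12 without spleen PBS library 2. General T cell markers moved the other way: their 6 genes summed to 3696 to 3950 CPM in lung and 4065 to 4342 CPM in liver against 5481 to 6724 CPM in spleen, with 4 of 6 called lower in lung and 3 of 6 in liver. B cell markers summed to 14.7 to 30.5 CPM over 6 genes in lung and 36.2 to 57.3 CPM in spleen, with 1 of 6 called lower. Hepatocyte markers summed to 5.34 to 18.4 CPM over 4 genes in liver and 0 to 1.43 CPM in spleen, with both tested genes called higher. The part of these markers in the results was not tested.

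In ear skin 25 genes were called higher and 1 lower, against 11.1% and 12.5% of all genes, with a median of 1.02 against 0.14. Mcm10 read 49.9, 22.9 and 19.6 CPM in ear skin and 0.970, 1.96 and 7.09 in spleen (3.38, SE 0.64, adjusted p = 0.000135). Chaf1a, the large subunit of the factor that packs new DNA into nucleosomes, read 58.4, 28.5 and 33.6 CPM against 0.323, 8.22 and 13.0 (2.61, SE 0.63, adjusted p = 0.00211), and Clspn followed (2.61). Gins4 was the gene called lower, at 43.2, 23.5 and 30.7 CPM against 97.5, 46.4 and 48.2 (-0.84, SE 0.31, adjusted p = 0.0443), a call lost by DESeq2 (adjusted p = 0.0549) and with other size factors. The total was 9 without ear skin PBS library 1, 13 without spleen PBS library 2, 17 with these 6 libraries alone and 11 with the rare gene share as a covariate, a share that was above that of every spleen library in all 3 ear skin libraries. Fibroblast and adipocyte markers summed to 16.9 to 30.5 CPM over 7 genes in ear skin and 1.43 to 9.29 CPM in spleen, with 1 of 5 tested called higher. Dendritic cell markers summed to 11.9 to 31.1 CPM over 5 genes against 1.43 to 4.77 CPM, with 1 of 5 called higher. T cell markers summed to 3052 to 3108 CPM, with 5 of 6 called lower, and endothelial markers to 51.2 to 111 CPM over 4 genes against 218 to 232 CPM, with 1 of 4 called lower. Their part in the result was not tested.

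VAT stood closer to spleen. In PBS-labelled mice 7 genes were called higher, against 8.67% of all genes, with a median of 0.55 against -0.06. They were Cdt1, Mcm10, Gins1, Pola1, Pold1, Lig1 and Slbp. Gins1 (2.25, adjusted p = 0.0224), Mcm10 (2.05, adjusted p = 0.0169) and Lig1 (SE 0.38, adjusted p = 0.0257) led, while Rrm2 (0.20, SE 0.42) and Tyms (0.07, SE 0.29) showed little difference. Rrm2 read 62.5, 119, 38.7 and 127 CPM in VAT and 77.6, 39.0 and 115 in spleen, fully overlapping. Each removal of a single library changed this count: it was 10 without spleen PBS library 3, 1 without spleen PBS library 2 or VAT PBS library 4, 2 without spleen PBS library 1 or VAT PBS library 2, 3 without VAT PBS library 3 and 4 without VAT PBS library 1. With the 7 libraries alone it was 1. Plasma cell markers summed to 270 to 924 CPM over 4 genes in VAT against 149 to 166 CPM in spleen (2 of 4 called higher), and T cell markers to 3664 to 4124 CPM against 5481 to 6724 CPM (4 of 6 called lower). Dendritic cell markers were higher, at 6.42 to 18.2 CPM against 1.43 to 4.77 CPM (1 of 5 called). B cell markers were lower, at 16.6 to 29.3 CPM against 36.2 to 57.3 CPM (1 of 6 called), as were endothelial markers, at 56.2 to 94.4 CPM over 4 genes against 218 to 232 CPM (1 of 4 called). Their part in the result was not tested.

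In the DT-labelled arm, which holds other libraries, lung again stood above spleen. Cdc6 read 58.3, 47.9 and 48.8 CPM in lung and 7.24, 1.60 and 8.86 in spleen, and Rrm2 read 269, 213 and 374 against 69.7, 41.3 and 74.5 CPM, with no overlap. In lung 25 genes were called higher, against 8.48% of all genes, with a median of 1.08 against 0.01, led by Cdc6 (3.17), Clspn (2.75) and Orc1 (2.52). The count was 14 without spleen DT library 5, the spleen library with the lowest score (4.36). In liver 16 genes were called higher, against 8.18%, with a median of 0.71, led by Cdc6 (2.63), Orc1 (2.22) and Cdc45 (1.95). That count was 5 without spleen DT library 5, 9 without spleen DT library 4 or 6 and 8 without liver DT library 4 or 6.

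In DT-labelled ear skin 3 genes were called higher than in spleen, against 10.5% of all genes: Clspn (1.75, adjusted p = 0.0198), Tk1 (1.29, adjusted p = 0.00216) and Prim1, the primase subunit (0.88, adjusted p = 0.0395), with a median of 0.38 against 0.13. This was a smaller share of the 38 genes than of all genes. Tk1 read 71.9, 66.3 and 77.1 CPM in ear skin and 29.7, 28.4 and 37.8 in spleen, so all ear skin libraries were higher. The count was 1 without spleen DT library 5 or ear skin DT library 5, 0 with the rare gene share as a covariate and 10 with the 6 libraries alone. In DT-labelled VAT 2 genes were called higher, Lig1 (1.31, adjusted p = 0.0242) and Slbp, which binds histone messages (0.65, adjusted p = 0.0217), against 5.70% of all genes, with a median of 0.53 against 0.03. Here too the share of the list called was no larger than that of all genes. The VAT count was 0 without spleen DT library 5 or VAT DT library 6, and 1 without spleen DT library 4 or 6 or VAT DT library 5 or 8. The fibroblast and adipocyte markers reached 533 CPM in a DT-labelled VAT library and 1.71 CPM in the lowest. T cell markers were lower than the 5755 to 6029 CPM of DT-labelled spleen in every tissue: 4111 to 4550 CPM in lung (2 of 6 called), 4018 to 4842 CPM in liver (1 of 6), 3324 to 3690 CPM in ear skin (5 of 6) and 3801 to 4421 CPM in VAT (3 of 6). Hepatocyte markers summed to 2.58 to 21.1 CPM over 4 genes in liver against 0 to 1.35 CPM in spleen (1 of 2 tested called higher). The part of these markers in the results was not tested, nor was whether the tissue differences themselves differ between the arms.

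**Figure D4:**
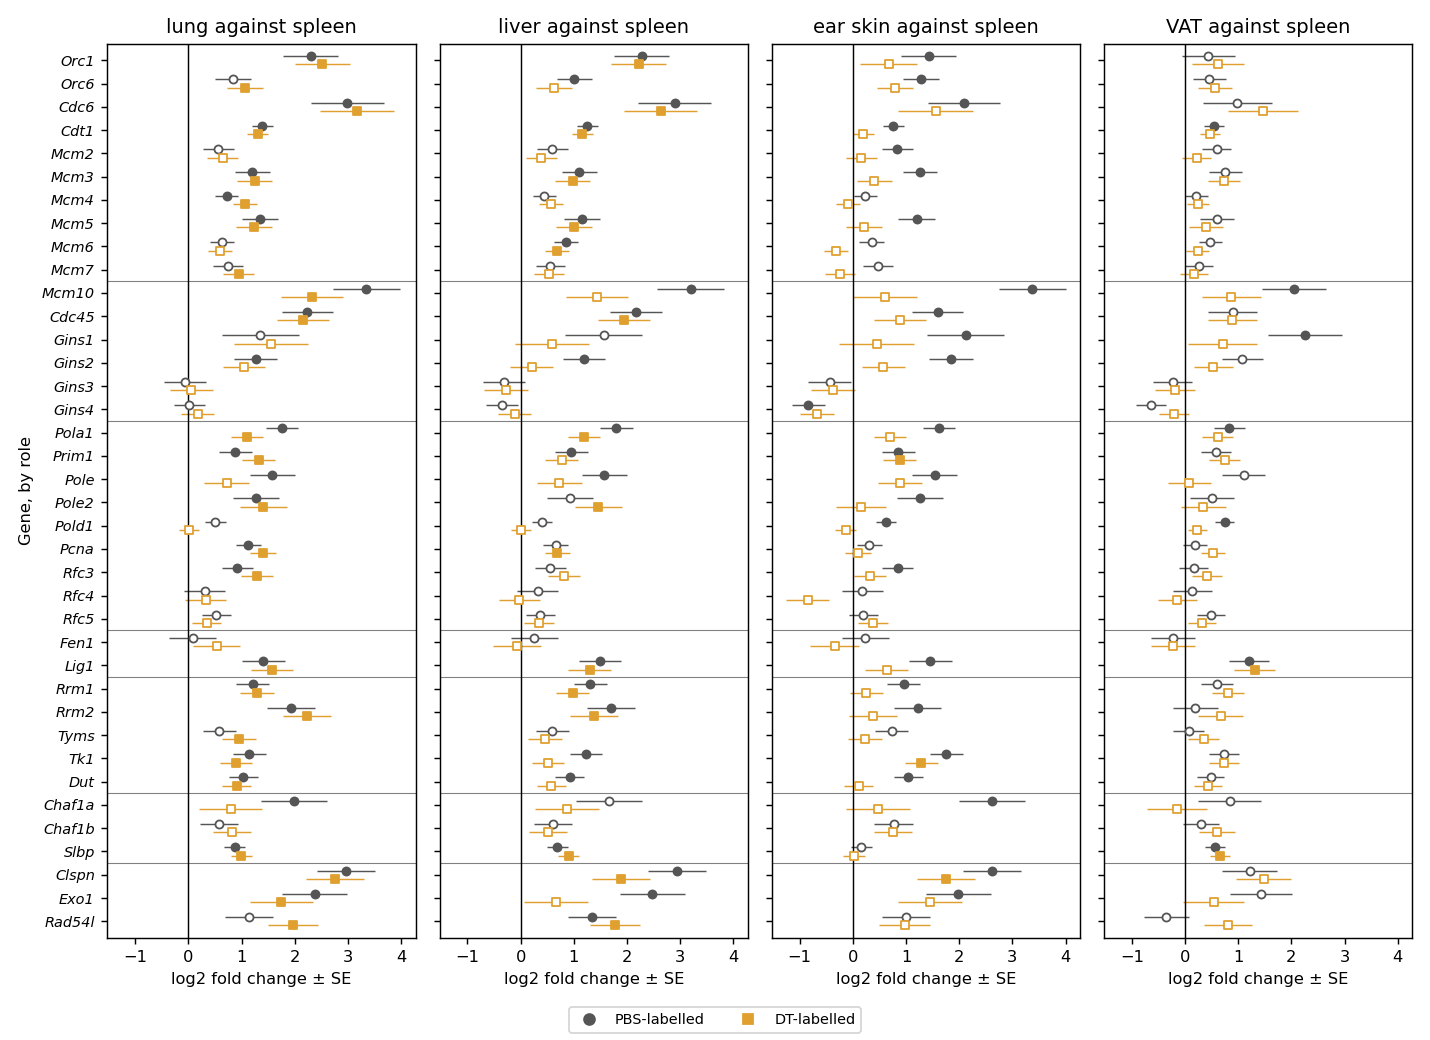
Log2 fold change ± SE (x axis) of each gene (y axis, by role) in lung, liver, ear skin and VAT against the spleen of the same arm, circles for PBS-labelled and squares for DT-labelled libraries, filled where called. In lung and liver Cdc6, Mcm10 and Clspn lie farthest right in the PBS-labelled arm, and in ear skin most DT-labelled squares lie left of the circles.

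DT against PBS within a tissue gave little. In spleen, lung and liver no gene of the table was called by edgeR (0% in each direction), and among the 38 genes 0 had an unadjusted p below 0.05 in spleen, 0 in lung and 6 in liver, against 358 of 12453, 412 of 12046 and 525 of 11962 of all genes tested. DESeq2 also called 0 of the 38 in these tissues. In VAT 15 genes of the table were called (0.0746% lower and 0.0497% higher) but none of the 38, of which 0 had an unadjusted p below 0.05 (955 of 12067 of all genes), with 0 by DESeq2. In ear skin 36 of the 38 genes had a negative log2 fold change (6493 of all 12653 genes tested) and 24 an unadjusted p below 0.05 (1164 of all 12653), with a median of -0.73 against -0.01, but only Rrm2 was called, against 0.134% of all genes called lower. Rrm2 read 254, 117 and 123 CPM in PBS-labelled and 62.8, 77.4 and 80.4 in DT-labelled ear skin (-1.13, SE 0.24, adjusted p = 0.0440). All DT-labelled libraries lay below all PBS-labelled ones, and PBS library 1 was far the highest.

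Next in ear skin were Mcm3 (-0.87, SE 0.20, adjusted p = 0.0688), Mcm5 (-0.95, SE 0.23, adjusted p = 0.0749) and Chaf1a (-1.30, SE 0.32, adjusted p = 0.0920), none of them called. Mcm5 read 341, 166 and 184 CPM in PBS-labelled and 90.2, 137 and 121 in DT-labelled libraries. No member was called without ear skin PBS library 1 or without DT library 4, 5 or 6, and 2 were called without PBS library 2. DESeq2 called 5, and with no filter on low counts 8 were called.

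**Figure D5:**
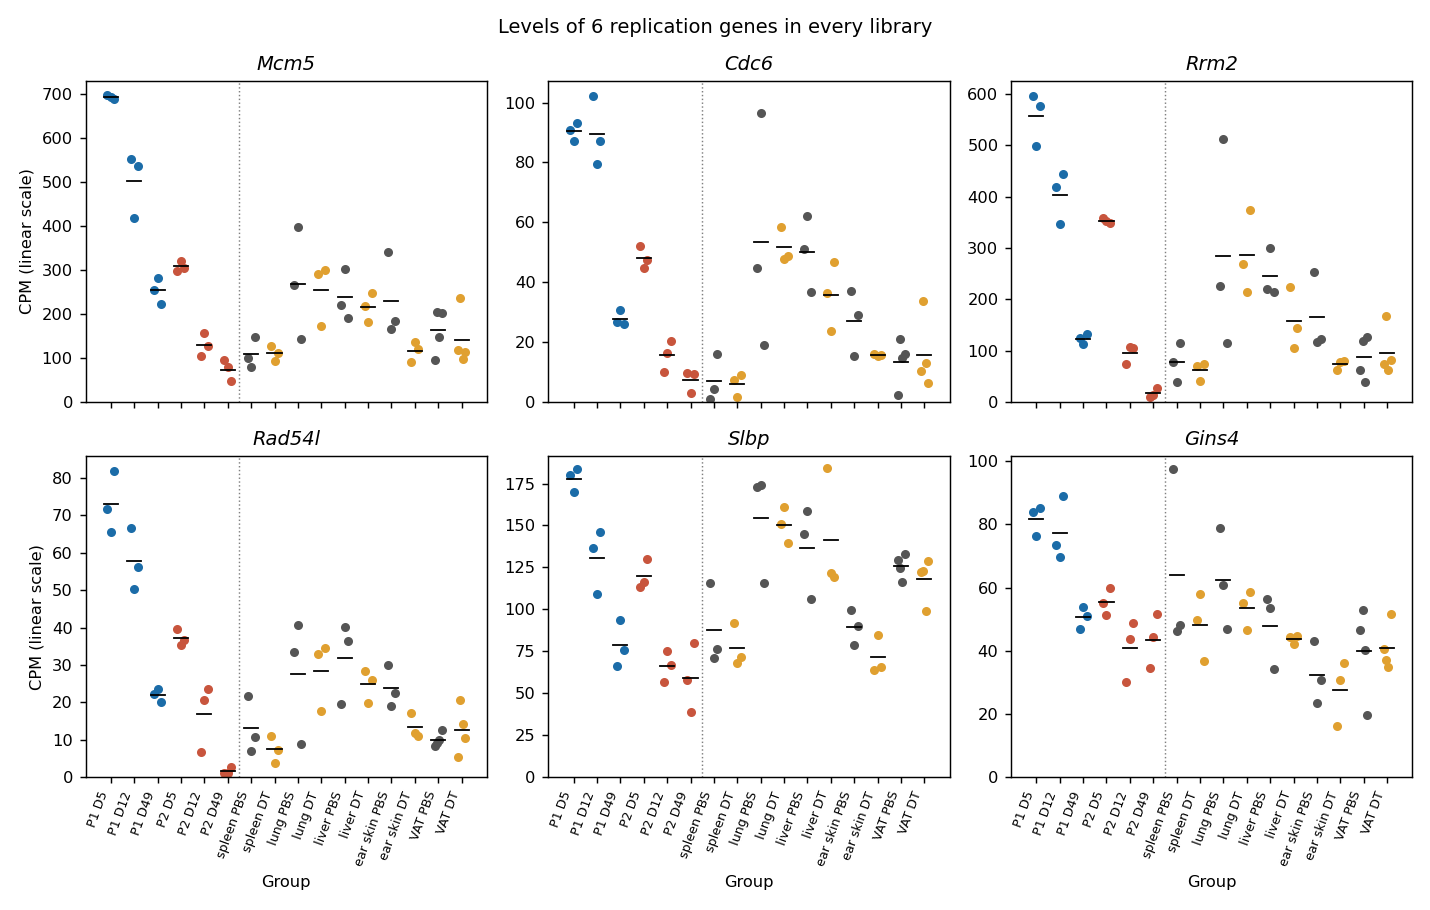
CPM on a linear scale (y axis) of Mcm5, Cdc6, Rrm2, Rad54l, Slbp and Gins4 in every library of the 16 groups (x axis), with the group mean as a line and P1 in blue, P2 in red, PBS-labelled in grey and DT-labelled in orange. Mcm5, Cdc6, Rrm2 and Rad54l are high in P1 at D5 and low in P2 at D49, Mcm5, Cdc6 and Rrm2 have higher means in lung and liver than in spleen, and Gins4 has the smallest fold range of group means (2.95).

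The genes differed in how closely they followed the rest. As a description over libraries that share groups and depth, Pearson's r of a gene's log2 CPM with the mean of the other 37 over all 50 libraries was highest for Rrm1, the large subunit of ribonucleotide reductase (0.967), Mcm5 (0.960) and Mcm3 (0.958). It was lowest for Gins4 (0.487) and Gins3 (0.548), 2 of the 4 GINS subunits, which are described here because of these values, and over the 32 peripheral libraries it was 0.137 and 0.248. Gins4 means ran from 27.7 CPM in DT-labelled ear skin to 81.7 CPM in P1 at D5, a 2.95-fold span, whereas Rad54l spanned 44.3-fold and Rrm2 33.5-fold. Slbp, which is made for histone messages in S phase, spanned 3.02-fold. Gins1 and Gins2, the other subunits, spanned 16.3-fold and 15.8-fold, although low counts make the Gins1 levels imprecise (0 to 34.0 CPM over libraries).

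Mki67 and Top2a, which mark cycling cells beyond S phase and are not in the list, are given as a reference. Mki67 averaged 264 ± 8.24 CPM in P1 at D5, 41.8 ± 6.97 in P1 at D49 and 20.9 ± 12.2 in P2 at D49, and 28.1 ± 24.3 in PBS-labelled spleen against 154 ± 102 in lung and 190 ± 47.6 in liver (SD, n = 3 libraries each). Top2a was 635 ± 63.2 CPM in P2 at D5 and 769 ± 110 in P1 at D5. In PBS-labelled lung against spleen 8 of 40 other replication factors were called higher and 4 lower (median 0.41), where 1444 and 1381 of all 17731 genes tested were, with Donson, a helicase assembly factor, among the higher (SE 0.36, adjusted p = 0.00282) and Mcmbp, which binds free Mcm proteins, at -1.32. Of 14 entry regulators 6 were higher there, with Ccne2 at 2.49 and E2f7 at 2.85. Of 20 other nucleotide supply genes 5 were lower and none higher. Cdkn1a, the cell cycle brake p21, was higher than in spleen in all 4 tissues of the PBS-labelled arm, in lung (5.59, SE 0.52), liver (5.18, SE 0.52), ear skin (5.86, SE 0.52) and VAT (6.11, SE 0.52). Of the DT-labelled tissues, lung (5.65), liver (4.75) and ear skin (5.63) were also above spleen, and VAT is not given here. Other genes linked to rest or arrest went both ways. In PBS-labelled ear skin Rbl2 (0.74) was called higher and Klf2 (-1.92) and Foxo1 (-0.95) lower. In PBS-labelled VAT Rbl2 (1.42) and Btg2 (2.02) were called higher and Foxo1 (-1.24) lower.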

How the data were processed

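RNA-seq counts of 50 libraries in 16 groups were analysed. The submitters' processing notes name STAR 2.7.3a, featureCounts and the build mm10, and the deposited table holds raw counts per gene as the authors made them. For the annotation, the strand setting and multiply mapped reads, the choice made is not given in the sources used. Counts were tested with edgeR 4.0.16 (R 4.3.3): TMM scaling, filterByExpr (minimum count 10, minimum total 15), the quasi-likelihood test, two-sided, and Benjamini-Hochberg adjustment over all genes tested, with a threshold of 0.05. The thymus fit held 18 libraries and 14696 genes and the periphery fit 32 libraries and 17731 genes, so groups shared 1 estimate of the spread, and the 2 arms of a tissue were compared in a fit of that tissue's libraries. CPM values are TMM-scaled.

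The genes and lists were chosen with earlier results of these data known. Named genes were a set from each role, up to 3 called genes of the largest change per direction in each comparison and any gene against the majority direction, and genes outside this rule are said to be chosen after their values were seen. For the other lists, up to 4 genes of smallest adjusted p could be named. Alternatives were other size factors, no filter, DESeq2 1.42.0, the compared libraries alone, the replicate number as a block and leaving out each library. Protein sequences were not used here. The main edgeR test was run on simulated counts for P1 D49 against D5, PBS-labelled VAT against spleen and DT against PBS in ear skin. The interactions and the alternatives were not checked in this way.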

Additional observations from a re-analysis of the deposited data

Results flagged for a closer look

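In VAT, the only tissue with 4 libraries a group, single libraries stood far from the others of their arm, measured as the gap to the nearest library divided by the range of the group and judged against Dixon's 95% critical value. DT-labelled VAT library 6 was highest for Mcm2 (0.875), Mcm5 (0.844), Mcm6 (0.893), Mcm10 (0.831) and the replication score (0.955). DT-labelled VAT library 5 was lowest for Clspn (0.937). In the PBS-labelled arm, library 4 was highest for Cdc45 (0.917), library 2 highest for Pcna (0.882) and library 1 lowest for Fen1 (0.836). There were 9 such values in 78 groups of values, where chance gives about 1 in 20 (3.9), and the genes share libraries.

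The change with age differed between P2 and P1 by the interaction test. From D5 to D12 the log2 difference of the changes (P2 minus P1) was -1.77 for Cdc6, -1.58 for Rrm2, -1.46 for Gins2, -1.32 for Lig1, -1.12 for Mcm2, -1.09 for Rrm1 and -0.94 for Mcm5. From D5 to D49 it was -2.51 for Rad54l and -2.01 for Rrm2.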

How the results depend on the processing

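Of 388 calls of the 38 genes over all comparisons, 0 turned direction under any alternative run and 210 were kept in every one. The numbers called that moved beyond 1.5 times follow. With other size factors P1 D12 against D5 gave 5. With no filter P2 D49 against D12 gave 23, the interaction 14 at D12 and 9 at D49, DT-labelled ear skin 5, DT-labelled VAT 5 and DT against PBS in ear skin 8. DESeq2 gave 16 for the D12 interaction, 6 for DT-labelled ear skin and 5 for DT against PBS in ear skin. With the compared libraries alone the counts were 19 (P1 D12 against D5), 1 (P2 D49 against D12), 24 (D12 interaction), 10 (PBS-labelled lung), 17 (PBS-labelled ear skin), 1 (PBS-labelled VAT), 10 (DT-labelled ear skin) and 5 (DT-labelled VAT).

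Alternatives chosen after seeing the data were the rare gene share as a covariate, only genes of at least 20 CPM, and P2 D49 libraries 2 and 3 left out. The covariate gave 2 (P1 D12 against D5), 20 (P1 D49 against D12), 6 (P2 D49 against D12), 3 and 1 (the D12 and D49 interactions), 11 (PBS-labelled ear skin) and 0 (DT-labelled ear skin). Genes of at least 20 CPM gave 12 (D12 interaction), 4 (PBS-labelled VAT) and 5 (DT-labelled ear skin). Without both P2 D49 libraries the D49 interaction gave 6, with 1 library left at that age. The cause of these shifts was not tested.

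Leaving out 1 library gave 3 to 5 for P1 D12 against D5, 31 to 34 for P1 D49 against D12, 34 to 37 for P1 D49 against D5, 23 to 31 for P2 D12 against D5, 5 to 16 for P2 D49 against D12 and 33 to 36 for P2 D49 against D5. P2 against P1 gave 16 to 23 at D5, 35 to 37 at D12 and 24 to 30 at D49, and the interactions 4 to 7 at D12 and 1 to 4 at D49. Against spleen the PBS-labelled arm gave 10 to 27 in lung, 11 to 22 in liver, 9 to 24 in ear skin and 1 to 10 in VAT. The DT-labelled arm gave 14 to 22, 5 to 11, 1 to 4 and 0 to 2 in that order. DT against PBS gave 0 to 2 in ear skin and 0 to 0 elsewhere.

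Replicate numbers showed no clear pairing: same-numbered deviations correlated between -0.185 and 0.144 and no comparison had every pair over 0.1. With only 2 or 3 pairs per comparison, this check cannot tell whether same-numbered libraries share an animal. With the replicate block, the periphery was fitted on the compared libraries alone, keeping only replicate numbers present in both groups. The counts were 7 in PBS-labelled lung, 0 in PBS-labelled VAT and 11 in DT-labelled ear skin. DT-labelled VAT gave 15, and counts were within 1.5 times elsewhere. For VAT this left out VAT PBS library 4, VAT DT libraries 7 and 8 and spleen DT library 4. The 15 calls thus rest on 2 libraries per group, among them VAT DT library 6, the highest-scoring of its arm. No paired analysis was possible because the arms share no replicate numbers, for DT against PBS. Depth limits the low genes most, such as Gins1 and Orc1.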
